A study of Mus musculus with 9 samples.

Results

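Inhibitory receptor genes other than those of PD-1 and CTLA-4 were examined in transferred CD8 T cells: Havcr2, Lag3, Tigit, Cd160, Btla and Vsir. The 6 genes were chosen by name, and an accessible region was given to a gene when it overlapped the gene body or when one of the gene's ends was the nearest protein-coding gene end within 100 kb. By that rule the 6 genes held 50 of the 62963 regions formed on chromosomes 1 to 19 and X by joining the overlapping peaks of 9 peak lists. Havcr2 had 4 regions, Lag3 7, Tigit 14, Cd160 3, Btla 8 and Vsir 14. Regions are numbered within each gene from the lower coordinate.

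The assay was ATAC-seq, in which a transposase tags DNA that is not wrapped in nucleosomes, so that peaks mark accessible chromatin. The cells were P14 cells, CD8 T cells whose transgenic receptor recognises an epitope of the LCMV glycoprotein, taken from a TCF-1-GFP reporter line. Mice labelled C57BL/6 and WT carried subcutaneous B16.F10 melanoma cells that expressed this glycoprotein (500000 cells injected), and received 500000 naive CD44-GFP+ P14 cells 8 days later. CD45.1+CD44+ CD8 T cells were sorted from nodes that drain the tumor on day 4, day 8 and day 21 after transfer, with 50000 cells per library and 3 peak lists a day. All 3 days shared the tumor, the transgenic receptor, the reporter and the sort. No group without a tumor, from another tissue or with another genotype was analysed here, and no source used here gives the number of mice behind each list. Days were read from the sample titles, since the labels carry the day under genotype and the genotype under time point. The sorted cells are a bulk population, so a region open in more cells and a region more open in each cell cannot be told apart.

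Inhibitory receptors are surface proteins that dampen T cell activation when they bind their ligands. TIM-3 (encoded by Havcr2), LAG-3 and TIGIT are known to appear on activated CD8 T cells and to persist under lasting antigen exposure, as in tumors and chronic infection. BTLA and VISTA (encoded by Vsir) are also found on naive T cells. TIM-3 binds galectin-9 among other ligands, LAG-3 binds MHC class II, TIGIT competes with the activating receptor CD226 for the poliovirus receptor, and CD160 and BTLA share the ligand HVEM.

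Promoter windows are shown for 3 genes to set a late, a strong and a split start side by side. The Havcr2 start was called on day 8 and day 21 and not on day 4, the Tigit start lay in the member region with the highest peak significance, and, like the Btla and Vsir starts, was called in all 9 lists, and of the Cd160 starts the inner was called in all 9 lists and the outer in none. Each window runs 5′ to 3′ on the strand of the gene, from 250 bases before the RefSeq start site to 50 bases after it, in build GRCm38.p6 (mm10). Capitals mark matches, on either strand, to the motifs named after the sequences.
Havcr2 start, chr11:46454681-46454980, plus strand: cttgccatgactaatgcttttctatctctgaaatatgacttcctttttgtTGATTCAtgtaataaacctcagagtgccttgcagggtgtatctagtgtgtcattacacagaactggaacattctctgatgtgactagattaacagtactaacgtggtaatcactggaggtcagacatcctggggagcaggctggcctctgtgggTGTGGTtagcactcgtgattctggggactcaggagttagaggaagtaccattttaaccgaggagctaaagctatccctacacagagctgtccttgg
Tigit start, chr16:43664135-43664434, minus strand: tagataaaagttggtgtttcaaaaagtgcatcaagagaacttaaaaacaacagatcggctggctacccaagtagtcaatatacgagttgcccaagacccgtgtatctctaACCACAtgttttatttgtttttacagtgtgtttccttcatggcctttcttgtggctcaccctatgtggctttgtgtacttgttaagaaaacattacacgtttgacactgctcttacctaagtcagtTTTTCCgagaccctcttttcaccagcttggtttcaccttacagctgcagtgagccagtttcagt
Cd160 inner start, chr3:96814472-96814771, minus strand: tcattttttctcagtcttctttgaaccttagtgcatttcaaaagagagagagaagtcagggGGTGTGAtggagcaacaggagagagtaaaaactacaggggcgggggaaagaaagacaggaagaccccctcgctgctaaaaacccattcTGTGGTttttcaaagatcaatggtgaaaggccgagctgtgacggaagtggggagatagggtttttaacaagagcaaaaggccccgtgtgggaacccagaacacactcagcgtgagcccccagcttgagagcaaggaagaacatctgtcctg
Cd160 outer start, chr3:96829302-96829601, minus strand: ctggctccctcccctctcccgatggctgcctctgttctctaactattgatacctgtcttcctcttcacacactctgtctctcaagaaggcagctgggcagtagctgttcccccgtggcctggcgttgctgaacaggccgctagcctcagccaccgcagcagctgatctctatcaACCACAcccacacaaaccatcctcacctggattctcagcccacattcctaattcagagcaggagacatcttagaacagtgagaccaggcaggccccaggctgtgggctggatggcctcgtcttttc
Letters were searched for 5 families of T cell transcription factors, and this list was chosen after the calls had been seen. AP-1 (TGANTCA) was present in 7.04% of all 21045 protein-coding promoter windows, RUNX (TGTGGT) in 14.7%, T-box (GGTGTGA) in 3.67%, TCF/LEF (CTTTGAT) in 3.25% and NFAT (GGAAAA) in 22.3%. Havcr2 held an AP-1 match at position -200 relative to the start site and a RUNX match at -46. Tigit held a RUNX match at -140 and an NFAT match at -14, both on the opposite strand. The inner Cd160 window held a T-box match at -189 and a RUNX match at -101, and the outer window a RUNX match at -76 on the opposite strand. Btla held a RUNX match at -178 and Vsir none of the 5 motifs, and no match overlapped another. RUNX letters were thus in 5 of 6 windows, among them the outer Cd160 window that no list called. The matches describe these letters only.

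The lists of the 3 days differed in size and strength before any gene is considered. Day 4 lists held 19499 to 22250 peaks, day 8 lists 47513 to 50835 and day 21 lists 46492 to 51671. The median summit of the 15109 regions common to the 9 lists stood 10.7 to 11.2 times over the smallest background of the list on day 4, 26.6 to 28.6 times on day 8 and 24.4 to 27.0 times on day 21. In tags that median was 29 to 36 on day 4, 61 to 70 on day 8 and 63 to 75 on day 21. Summits in tags given below are to be read against this rise. Counts of member regions are therefore given beside those of all regions. The peak names of the 3 lists of a day carry the same sequencing sample number, and lists of a day differed less at shared regions than lists of different days (mean chi-square per region 0.417 to 0.444 over 9 pairs, against 0.965 to 1.19 over 27 pairs). Whether the 3 lists of a day came from separate mice or separate libraries is not known, so the spread between lists may be technical. The p-values here rest on that spread, or on a floor set for it where the floor is larger. With 1 sample a day no test would be possible. Marker genes of CD8 T cells had called regions in every list, with all 6 of 6 genes present and sums of 10 to 14, 32 to 36 and 32 to 37 regions on days 4, 8 and 21. Markers of other cells also had more called regions on the later days: the 6 B cell genes summed to 0 to 1, 11 to 12 and 10 to 14 regions, with Ms4a1 at 0 in every list, and the 5 endothelial and stromal genes to 2 to 4, 19 to 24 and 19 to 21. The 6 myeloid genes summed to 2 to 3, 11 to 16 and 13 to 14 regions (Lyz2 at 0), the 6 melanoma genes to 4 to 6, 9 to 10 and 10 to 13 (Tyr and Sox10 at 0), the 3 NK genes to 4 to 6, 9 to 11 and 10 to 11, and the 3 CD4 T cell genes to 1 to 2, 7 to 8 and 6 in each (Foxp3 at 0). Relative to list totals, 2 of 2 B cell genes tested were higher on day 8 than on day 4 (median log2 difference 1.74). So were 3 of 5 endothelial and stromal genes (median 1.84), about as much as Havcr2 and Lag3 below. All of these had at most 1 region called in any day 4 list. They reached the tested minimum of 3 regions through later lists, so the filter favoured a higher call. Higher were also 1 of 2 CD4 T cell genes (0.65) and 1 of 3 myeloid genes (0.28). Of 2 NK genes (0.20) and 3 melanoma genes (-0.77) 0 were higher and 1 in each list lower. Of 5 CD8 T cell genes 0 were higher and 1 lower (0.24). Over all genes 9.18% were higher and 21.5% lower. The part of other cells in the results below was not tested.

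Over the 6 receptor genes together, 14, 12 and 13 of 50 regions were called in the day 4 lists, 37, 38 and 41 in the day 8 lists and 34, 35 and 39 in the day 21 lists. No day 4 list reached the count of any later list, and day 8 and day 21 overlapped. The shares were close to those of the whole region set, in which 28.6% to 32.9% of regions were called on day 4, 72.4% to 77.9% on day 8 and 70.7% to 79.6% on day 21. Relative to the list totals Havcr2, Lag3 and Tigit were higher on day 8 than on day 4 and Btla and Vsir were lower, while without the division by list totals all 6 were higher on day 8. Of the 8223 genes with at least 3 regions, 9.18% were called higher and 21.5% lower in that comparison. On day 21 against day 4 Havcr2 and Lag3 were higher and Btla and Vsir lower, against 8.5% and 21.1% of all genes, and again all 6 were higher without the division. Havcr2 and Lag3 reached the minimum of 3 regions through the day 8 and day 21 lists alone, having 0 and 1 region called in any day 4 list, so the filter favoured a higher call for both and their counts are a description more than a test. The division sets the scale: the median difference of all genes was -0.14 for day 8 and -0.16 for day 21 against day 4, and 1.17 and 1.13 without it.

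**Figure D1:**
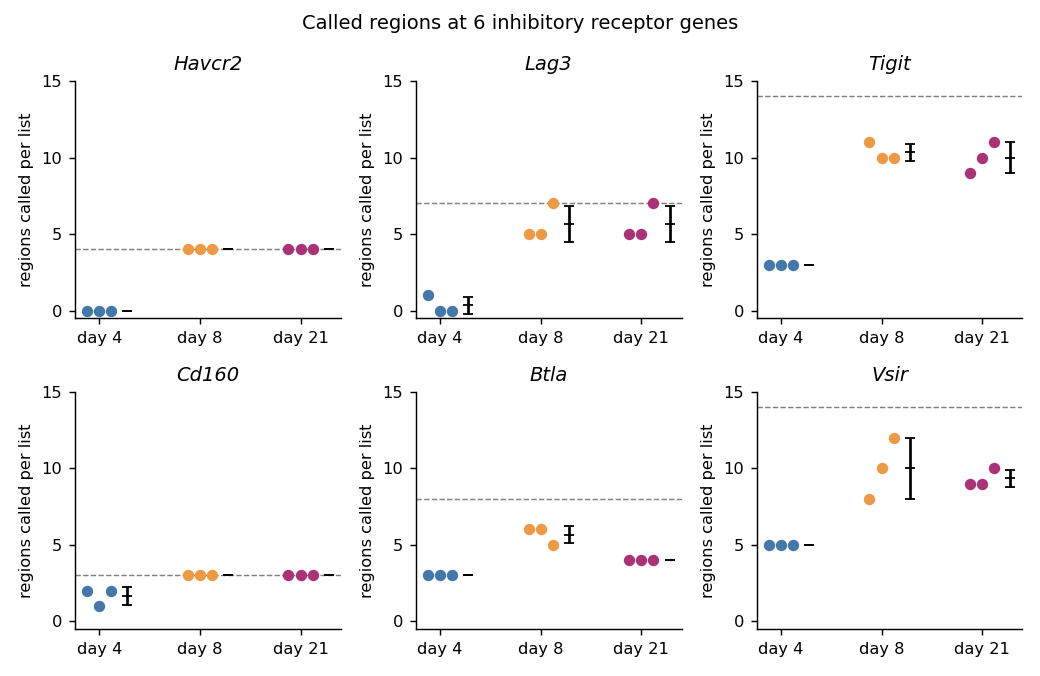
Number of regions called per peak list at each gene (points, 3 lists a day), with the mean and SD beside them and the gene's total of regions as a dashed line. Havcr2 stood at 0 in each day 4 list and at 4 of 4 in each later list, and every gene had more called regions in each day 8 list than in any day 4 list.

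Havcr2, the gene of TIM-3, had the sharpest contrast. Called regions numbered 0, 0 and 0 in the day 4 lists, 4, 4 and 4 in the day 8 lists and 4, 4 and 4 in the day 21 lists. The gene went uncalled throughout on day 4, and all of its regions were called in all 6 later lists. The number of regions, scaled to the list totals, was 1.87 ± 0.47 (SE) log2 units higher on day 8 than on day 4 (limma, Benjamini-Hochberg adjusted p = 0.0134) and 1.88 ± 0.47 higher on day 21 than on day 4 (adjusted p = 0.0132). Because day 4 stood at 0, these sizes depend on the 0.5 regions added before taking logs: with 1 region added they were 1.02 and 1.03, with adjusted p of 0.103 and 0.0979. Both calls held when any 1 of the 9 lists was left out, and were lost when a peak had to cover 50% of a region (0.93 and 1.06, adjusted p = 0.152 and 0.108). Havcr2 counts did not differ between the lists of a day. The SE of 0.47 for day 8 thus came from the floor on the spread and not from a spread seen between lists, and was 0.16 without the floor. By size, 98.4% of the genes tested lay below Havcr2 for day 8 against day 4. Of the 8223 genes, 933 (11.3%) had no called region on day 4, and 15 (0.182%), Havcr2 among them, had none on day 4 and all of their regions in every later list.

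All 4 Havcr2 regions lay in the gene body (chr11:46454931-46481255, plus strand). Region 1, chr11:46454640-46455068, covered the start site printed above. Such a pattern, uncalled on day 4 and called in all 6 later lists, was seen at 3.72% of all promoter windows. Its summits reached 16, 18 and 19 tags on day 8 and 15, 17 and 18 tags on day 21, on average the lowest summits of the 4 regions. Region 4, chr11:46474106-46474693, 19.2 kb from the start, had the highest fold enrichment of any late member region, at 11.8, 9.77 and 8.00 times its local background on day 8 and 8.56, 7.80 and 5.89 times on day 21. Region 3, chr11:46466675-46467351, reached 28, 29 and 30 tags on day 8 and 30, 39 and 33 tags on day 21. Region 2, chr11:46461795-46462301, reached 21, 22 and 32 tags on day 8 and 19, 17 and 23 on day 21. The 2 days overlapped at regions 1, 2 and 3, and at region 4 all but 1 of the day 8 summits stood above every day 21 summit, with 28 tags the shared value. The next protein-coding gene, Med7, ended 11.9 kb from region 1.

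**Figure D2:**
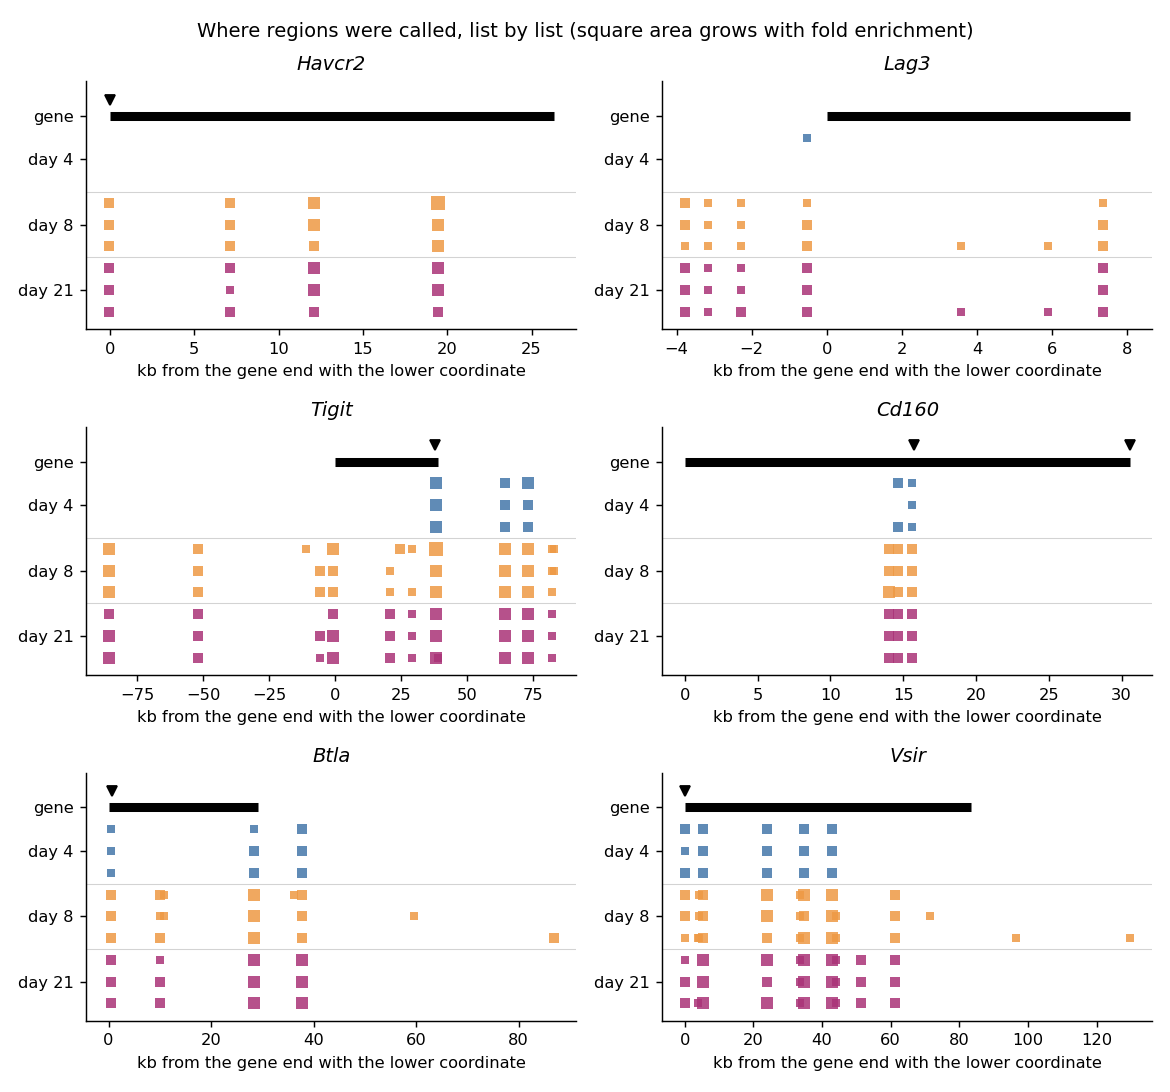
Position of called regions along each gene, in kb from the gene end with the lower coordinate, 1 row per list in order of day; the black bar is the gene body, triangles are RefSeq start sites with a promoter window, and square area grows with fold enrichment. Rows of Havcr2 are empty on day 4, while Tigit, Btla and Vsir each keep a set of positions called in all 9 lists (3, 3 and 5 regions).

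Lag3, the gene of the MHC class II receptor LAG-3, had almost no call on day 4 and most of its regions called later. Called regions numbered 1, 0 and 0 in the day 4 lists, 5, 5 and 7 in the day 8 lists and 5, 5 and 7 in the day 21 lists. Every later list stood above every day 4 list. The scaled number of regions was 1.78 ± 0.46 log2 units higher on day 8 than on day 4 (limma, adjusted p = 0.0164) and 1.79 ± 0.46 higher on day 21 than on day 4 (adjusted p = 0.0162). The day 8 call was lost without day 4 list 3 (adjusted p = 0.0686) or day 8 list 3 (0.0517), and the day 21 call without day 4 list 3 (0.0691) or day 21 list 3 (0.0519). With 1 region added before taking logs, the differences were 1.09 and 1.10, with adjusted p of 0.0870 and 0.0836. The SE of 0.46 for day 8 was set by the floor on the spread, and was 0.38 without it.

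Only 3 of the 7 Lag3 regions overlapped the gene body (chr6:124904359-124912434), and 4 lay between 0.255 and 3.59 kb below its lower coordinate. Regions 1, 2, 3 and 7 were called in no day 4 list and in all 6 later lists. Region 1, chr6:124900387-124900769, had the highest summit of these 4, with 35, 41 and 37 tags on day 8 and 38, 42 and 50 tags on day 21. Region 7, chr6:124911436-124911968, reached 24, 35 and 34 tags on day 8 and 36, 27 and 40 on day 21, and the days overlapped at both regions. Region 4, chr6:124903572-124904104, 0.255 kb from the gene, had the gene's highest peak significance and its single day 4 call, at 24 tags in list 1, against 32, 42 and 47 tags on day 8 and 45, 41 and 59 tags on day 21. Regions 5 and 6, inside the gene, were called in list 3 of day 8 and of day 21 and in no other list. Local backgrounds were high here, averaging 8.39 tags at region 1 on day 8 against 2.81 tags at Havcr2 region 1. The neighbours were close: Cd4 ended 12.1 kb from region 1 and Ptms 1.71 kb from region 7. Regions 1 to 4 overlapped no protein-coding gene body, so their link to Lag3 is by distance alone.

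Tigit, the gene of the receptor that competes with CD226, had both constant and late regions. Called regions numbered 3, 3 and 3 in the day 4 lists, 11, 10 and 10 in the day 8 lists and 9, 10 and 11 in the day 21 lists. Day 4 stood apart from both later days, which overlapped. The scaled number was 0.33 ± 0.11 log2 units higher on day 8 than on day 4 (limma, adjusted p = 0.0478) and 0.29 ± 0.11 on day 21 against day 4, which missed the threshold (adjusted p = 0.0707). The day 8 call was narrow: it held in 1 of 9 fits that left out a list (day 4 list 2, adjusted p = 0.0498), the others giving 0.0586 to 0.151, and with overlapped genes only it turned to -0.34 (adjusted p = 0.0555). When a peak had to cover 50% of a region, Tigit was called in the opposite direction, lower by both comparisons with day 4 (-0.56 on day 8, adjusted p = 0.0367, and -0.62 on day 21, 0.0244).

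The 3 constant Tigit regions were called in all 9 lists. Region 9, chr16:43663800-43664671, covered the start site printed above and reached 47, 42 and 52 tags on day 4, 87, 90 and 94 on day 8 and 86, 90 and 112 on day 21. Regions 11 and 12, chr16:43690000-43690787 and chr16:43698675-43699709, lay 25.8 and 34.5 kb from the start, outside any protein-coding gene body. Region 12 reached 37, 34 and 40 tags on day 4, 69, 66 and 75 on day 8 and 70, 81 and 83 on day 21. The summits of day 4 stood below those of both later days at all 3 regions, as did the median summit of all regions common to the 9 lists. Regions 1, 2, 5 and 13 were called in no day 4 list and in all later lists. Region 1, chr16:43540079-43540429, 85.7 kb from the gene, was the strongest of these by fold, at 8.29, 8.02 and 8.00 on day 8 and 6.76, 9.00 and 8.83 on day 21. Regions 1 to 5 lay inside the body of Zbtb20, a transcription factor gene, so their link to Tigit is by distance alone. Within 50 kb the day 8 difference was 0.03 (adjusted p = 0.845). The other 7 regions were called in part of the lists, and 3 of those in a single list.

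Cd160, the gene of a GPI-anchored receptor for HVEM, had 3 neighbouring regions in the middle of its body (chr3:96798763-96829351, minus strand). Called regions numbered 2, 1 and 2 in the day 4 lists, 3, 3 and 3 in the day 8 lists and 3, 3 and 3 in the day 21 lists. All later lists stood at the gene's ceiling and above every day 4 list. Scaled to the list totals the difference was -0.57 ± 0.24 log2 units for day 8 against day 4 (limma, adjusted p = 0.0858) and -0.56 ± 0.24 for day 21 against day 4 (adjusted p = 0.0947), neither past the threshold. A gene with all 3 regions called could not have scored above -0.57 on day 8, and without the division by list totals the difference was 0.73 in both comparisons (adjusted p = 0.0254 and 0.0260). Without day 4 list 2 both differences passed the threshold, at -0.78 (adjusted p = 0.0149) and -0.76 (0.0166).

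Region 3 of Cd160, chr3:96813879-96814805, covered the inner start and was called in all 9 lists, at 18, 21 and 24 tags on day 4, 58, 46 and 58 on day 8 and 44, 49 and 59 on day 21. Region 1, chr3:96812567-96813039, 1.48 kb from that start, was called in no day 4 list and had the highest summits of all 16 late member regions on day 8, at 55, 58 and 72 tags, with 50, 36 and 51 tags on day 21. All 3 day 8 summits there were above all 3 day 21 summits. Region 2, chr3:96813165-96813603, was called in day 4 lists 1 and 3, at 30 and 35 tags, and in all later lists. The outer start printed above had no call in any list, as was true of 45.9% of all promoter windows.

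Btla, the gene of the other HVEM receptor, had more called regions on the later days but fewer relative to the list totals. Called regions numbered 3, 3 and 3 in the day 4 lists, 6, 6 and 5 in the day 8 lists and 4, 4 and 4 in the day 21 lists. The 3 days did not overlap, and day 8 was the highest. The scaled number was lower on day 8 than on day 4, with a log2 difference of -0.49 ± 0.14 (limma, adjusted p = 0.0220), and on day 21 than on day 4, with -0.93 ± 0.14 (adjusted p = 0.00153), while without the division by list totals both turned to higher, at 0.81 and 0.36. The number of regions caps the scale: with all 8 called the day 8 difference would have been -0.02. The day 21 call held without any 1 list, and the day 8 call was lost without day 4 list 2 (adjusted p = 0.0523) or day 8 list 3 (0.0779).

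The constant Btla regions were 1, 4 and 6. Region 1, chr16:45223418-45225072, the widest of all member regions at 1655 bases, covered the start site and reached 20, 22 and 27 tags on day 4, 48, 52 and 50 on day 8 and 63, 62 and 85 on day 21. The days did not overlap there, and day 21 was the highest. Region 4, chr16:45251678-45252611, lay at the far end of the gene, and region 6, chr16:45261089-45261900, 8.19 kb beyond it. Region 2, chr16:45233523-45233990, was called in no day 4 list and in all later lists, at 15, 13 and 18 tags on day 8 and 14, 14 and 23 tags on day 21. Regions 3, 5, 7 and 8 were called in day 8 lists only, with summits of 11 to 15 tags, and account for the larger number on day 8.

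Vsir, the gene of VISTA, lies wholly within the body of Cdh23, a cadherin gene, so 12 of its 14 regions overlap both genes, and regions 13 and 14 overlap Cdh23 alone. Called regions numbered 5, 5 and 5 in the day 4 lists, 8, 10 and 12 in the day 8 lists and 9, 9 and 10 in the day 21 lists. Day 4 stood apart, and the later days overlapped. Relative to list totals the number was lower on day 8 than on day 4, with a log2 difference of -0.39 ± 0.12 (limma, adjusted p = 0.0376), and on day 21 than on day 4, with -0.45 ± 0.12 (adjusted p = 0.0219), while without the division both turned to higher, at 0.92 and 0.84. The number of regions caps the scale here too. With all 14 called the differences would have been 0.10 on day 8 and 0.11 on day 21, each below the SE, which left little room for a higher call. The day 8 call held in 2 of 9 fits that left out a list (day 4 list 3 and day 8 list 3), the others giving adjusted p of 0.0578 to 0.126. The day 21 call was lost without any of the 3 day 21 lists (adjusted p 0.0568 to 0.0675).

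Vsir regions 1, 4, 5, 7 and 8 were called in all 9 lists, the most of any of the 6 genes. Region 1, chr10:60346675-60347432, covered the start site and reached 38, 29 and 45 tags on day 4, 79, 86 and 68 on day 8 and 62, 70 and 82 on day 21. Region 4, chr10:60351765-60352465, 4.91 kb from the start, had the highest summit of any member region, with 45, 42 and 58 tags on day 4, 80, 86 and 103 on day 8 and 114, 102 and 128 on day 21. Day 21 stood above day 4 at both regions, while days 8 and 21 overlapped. The median summit of all regions common to the 9 lists also rose, from 29 to 36 tags on day 4 to 63 to 75 on day 21. Ranked among those regions by −log10 p, region 1 lay lower on day 21 than on day 4, as given below. The receptor genes' single gain and single loss between day 8 and day 21 were both at Vsir. Region 10, chr10:60398160-60398397, was called in all 3 day 21 lists, at 21, 14 and 23 tags, and in no other list. Region 3, chr10:60350881-60351102, was called in all 3 day 8 lists, at 54, 47 and 50 tags, and in no other list. It lies between regions 2 and 4, and a peak of region 2 was called in list 3 of both days.

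**Figure D3:**
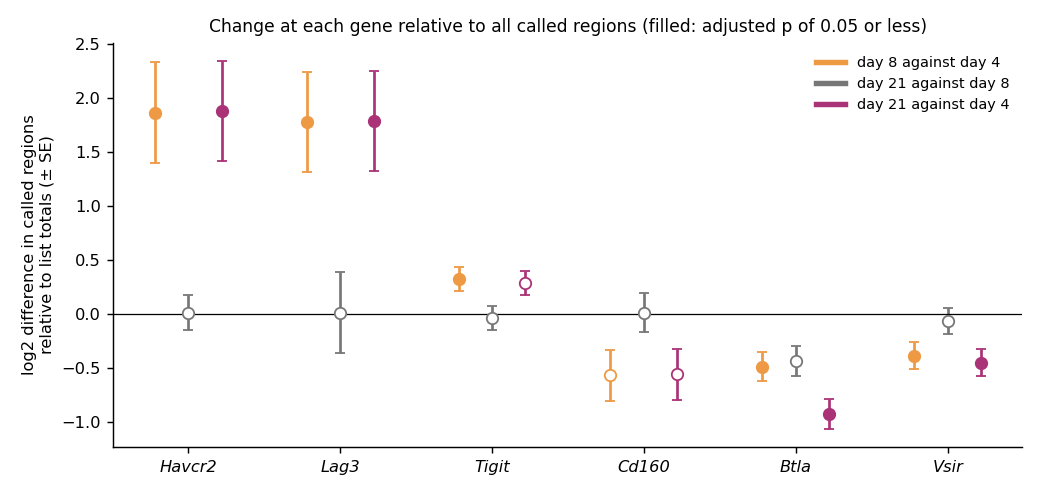
Difference between days in the number of called regions per gene, on the log2 scale relative to list totals. Bars are SE from limma over 9 lists, with the floor on the spread, and filled points passed an adjusted p of 0.05. Havcr2 and Lag3 lie near 1.8 to 1.9 against day 4, Btla and Vsir lie below 0 there but turn to above 0 without the division by list totals, and no gene passed for day 21 against day 8.

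Day 21 was also set against day 8 directly, to ask whether the receptor genes went on changing. None of the 6 genes passed the threshold in that fit, as for all genes, of which 0% were called higher and 0% lower (0 of 8223 with limma's adjusted p). Havcr2, Lag3 and Cd160 each had the same mean number on both days, with a scaled difference of 0.01. Btla had the largest difference, with 4, 4 and 4 regions on day 21 against 6, 6 and 5 on day 8 (-0.44 ± 0.14, unadjusted p = 0.00885, adjusted p = 0.282). At an unadjusted p under 0.05 there were 881 genes, of which Btla was the single member, and without a floor on the spread 2 genes were called. In 5 simulated sets, this fit called 63 to 78 of 200 genes given a 2-fold loss of called regions on day 21. Those genes had a mean of at least 4 called regions on day 8, which leaves out genes such as Cd160. Calls were redrawn independently in each list, so the simulated spread may differ from that of the real lists. The fit can thus miss such changes, and 0 calls do not show that no gene changed.

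Region by region, 17 of the 50 member regions were gained on day 8 against day 4, meaning called in 3 of 3 later lists and 0 of 3 earlier ones, and none was lost. Over all regions 25.7% were gained and 0.00953% lost. For day 21 against day 4, 20 member regions were gained and 0 lost, against 25.3% and 0.00794% of all regions. For day 21 against day 8, 1 was gained and 1 lost, against 1.02% and 1.09%. For 1 region, 3 lists against 3 cannot give an exact permutation p under 0.1, so gains are counts and not tests. By day 8, all 4 Havcr2 regions, 4 of 7 at Lag3, 4 of 14 at Tigit, 1 of 3 at Cd160, 1 of 8 at Btla and 3 of 14 at Vsir had been gained.

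The 50 regions fell into classes by their calls. Called in all 9 lists were 12 regions (24% of members, 24.0% of all regions), at Tigit, Cd160, Btla and Vsir and at neither Havcr2 nor Lag3. Called in no day 4 list and in all 6 later lists were 16 (32%, against 19.2% of all regions). The remaining 22 were called in some other set of lists, and 9 of these (18%, against 15.9%) in a single list. Day 8 lists alone held 11 regions (22%, against 11.8%), day 21 lists alone 2 (4%, against 10.9%) and day 4 lists alone 0 (0.262% of all regions). The constant regions were the widest, with a median of 899.5 bases (701 to 1655), against 474.5 bases (346 to 777) for the late ones and 262.5 bases (200 to 921) for the rest. Their highest −log10 p had a median of 50.4, against 18.2 and 8.14. A region called in more lists joins more peaks, and its highest −log10 p is taken over more lists. Both orders are thus partly set by the classes themselves, and the same values over all regions were not computed. Of the 50, 38 (76%, against 64.1% of all regions) overlapped a protein-coding gene body. The rule itself takes in regions that overlap a member's body and leaves out those far from its ends, so this share is partly set by the rule.

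**Figure D4:**
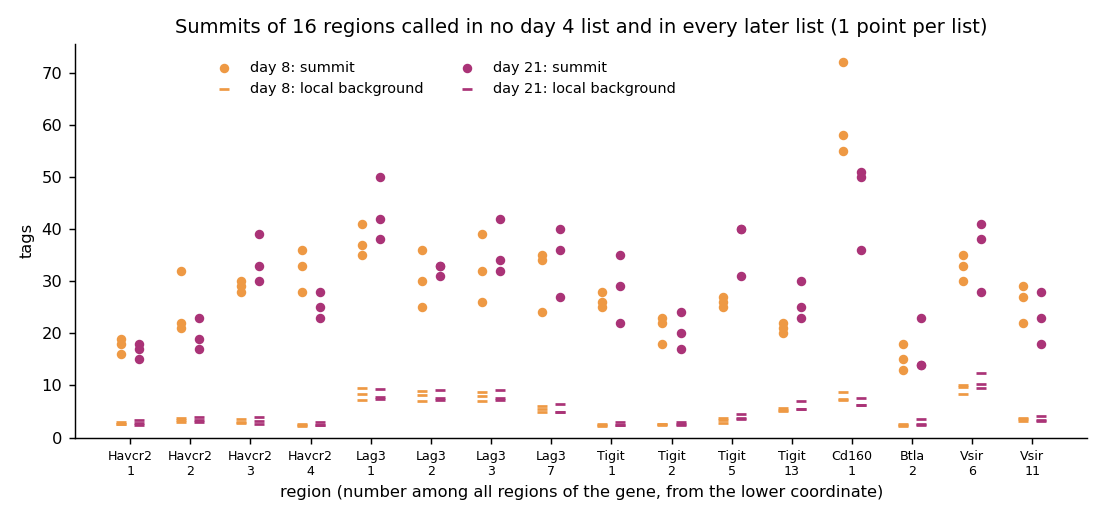
Summit height in tags (dots) and local background (bars), 1 point per list on day 8 and day 21, at the 16 member regions called in no day 4 list and in all later lists. Cd160 region 1 stands highest at 55 to 72 tags on day 8, while the 4 Havcr2 regions reach 39 tags at most over backgrounds of about 2 to 4 tags.

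How far a gain depends on the weaker day 4 lists was estimated, and this was done after the data had been seen. The smallest summit that could be called at the lowest background was 10, 10 and 11 tags in the day 4 lists, 8, 9 and 9 on day 8 and 9, 9 and 10 on day 21. Each of the 17 gained regions was given its mean day 8 summit times 0.482 and its mean day 8 background times 1.22, the ratios of day 4 to day 8 in the median summit of constant regions and in the smallest background. On that scale 4 of the 17 would still have passed the day 4 limit: Havcr2 regions 3 and 4, Tigit region 1 and Cd160 region 1. None of the 4 Lag3 gains, 3 Vsir gains or the Btla gain would have. At every constant member region, though, the mean local background was lower on day 4 than on day 8. It was 7.76 against 14.8 tags at Vsir region 1 and 4.85 against 7.42 at Tigit region 9. The factor of 1.22 runs the other way, so a region that did not pass on this scale could still have passed. When each list was instead held to its 19499 strongest peaks, the number in the smallest list, Havcr2 had 0, 0 and 0 regions on day 4, 2, 1 and 0 on day 8 and 2, 1 and 0 on day 21, and no member was called in any comparison. Cd160 region 1 was then the 1 member region of 50 gained on day 8, against 1.37% of all regions, and Havcr2 regions 3 and 4 and Tigit region 1 were not gained. Day and list strength vary together, so for all 17 gains a change in the cells and a weaker day 4 list cannot be told apart.

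Among the 12 constant regions, strength was compared within each list, as the percentile of the region's −log10 p among the same 15109 regions in every list. The Tigit start region stayed near the top, at 83.8 to 86.9 on day 4, 81.2 to 85.3 on day 8 and 78.8 to 88.2 on day 21. The Btla start region ranked at 11.6 to 17.5 on day 4, 7.88 to 16.4 on day 8 and 29.99 to 44.5 on day 21, the last not overlapping the others. The Vsir start region ranked at 20.4 to 51.1, 7.70 to 39.4 and 6.08 to 18.6, so that day 21 lay below day 4 and overlapped day 8. Vsir region 7 ranked at 32.3 to 56.7 on day 4, 35.0 to 56.4 on day 8 and 64.8 to 69.3 on day 21, and region 8 at 26.6 to 63.5, 63.4 to 71.7 and 75.2 to 78.2. By −log10 p, day 21 stood above the earlier days at both. By fold enrichment region 7 overlapped, at 20.1 to 44.4 on day 4, 17.0 to 33.6 on day 8 and 34.2 to 43.0 on day 21. Ranked by fold enrichment in place of −log10 p, the Btla start region averaged 12.6, 9.75 and 17.2 on days 4, 8 and 21 and the Vsir start region 17.8, 5.35 and 1.83, with the same order of days in each. The Tigit start region then averaged 88.1, 75.4 and 67.0, a wider spread between days than by −log10 p. These ranks describe the lists and were not tested.

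**Figure D5:**
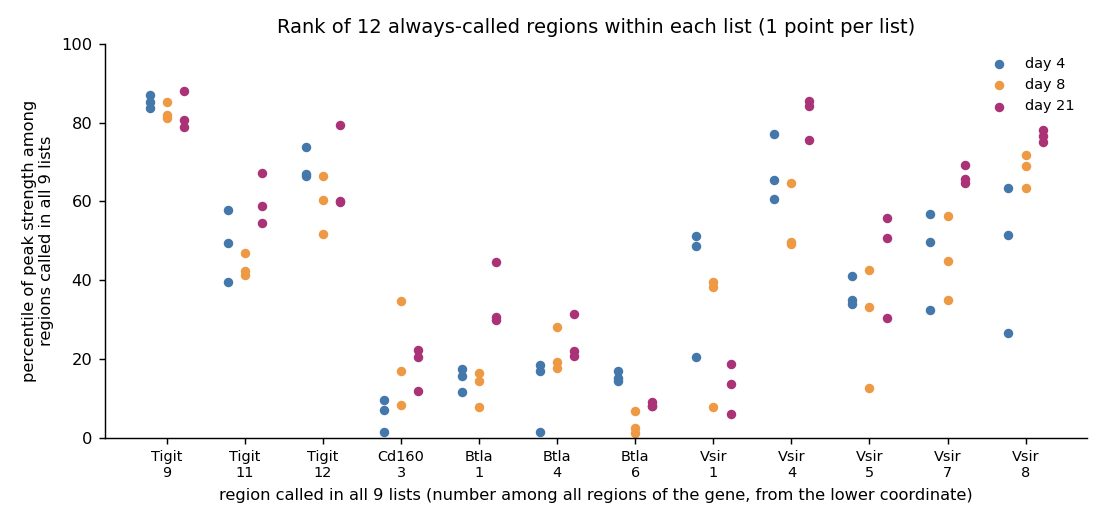
Percentile of each constant member region among the 15109 regions called in all 9 lists, 1 point per list, by −log10 p. The Tigit start region (Tigit 9) lies at 78.8 or above in every list, and the Btla start region (Btla 1) stands at 29.99 or above on day 21 and at 17.5 or below on the earlier days.

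Other genes of the same pathways moved in both directions. Of 18 genes for ligands and for receptors that share them, 10 had enough regions to be tested. For day 8 against day 4, H2-Aa, which encodes an MHC class II chain bound by LAG-3, was higher, and Tnfrsf14, the gene of HVEM, and Hmgb1, a TIM-3 ligand gene, were lower relative to list totals, though their counts themselves were larger. For both the direction was fixed by the number of regions, since with every region called the day 8 difference would have been -0.57 for Tnfrsf14 and -0.60 for Hmgb1. H2-Aa had the same counts as Havcr2 in every list (0, 0 and 0, then 4 in each later list). It too reached the minimum of 3 regions through the later lists alone, so the filter favoured its higher call. Tnfrsf14 had 5, 7 and 5 regions on day 8 against 4, 4 and 4 on day 4 (-0.86 ± 0.15, limma, adjusted p = 0.00291), and Hmgb1 10, 9 and 9 against 6, 5 and 7 (-0.70 ± 0.11, adjusted p = 0.00151). Thus 1 of 10 was higher and 2 of 10 lower, against 9.18% and 21.5% of all genes. The list's median was -0.24, against -0.14 over all genes. For day 21 against day 4, 2 were higher, H2-Aa and Cd226, and 2 lower, Tnfrsf14 and Hmgb1 (8.5% and 21.1% of all genes), with a median of -0.29 against -0.16. Cd226, the activating partner of TIGIT, had 13, 13 and 14 regions on day 21 against 3, 4 and 4 on day 4 (0.45 ± 0.12, adjusted p = 0.0165).

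Of 11 other inhibitory receptor genes 9 were tested, and relative to list totals none was called higher in any comparison. Pdcd1, the PD-1 gene, had 5, 5 and 6 regions on day 8 against 3, 4 and 3 on day 4, more in count but lower relative to list totals (-0.69 ± 0.16, limma, adjusted p = 0.0106). Cd5 and Cd101 were also lower on that scale, at -0.54 and -0.51 (adjusted p = 0.0123 and 0.0149), though Cd5 had 8, 7 and 8 regions on day 8 against 5, 4 and 4 on day 4 and Cd101 6, 7 and 7 against 3, 4 and 4. On day 21 against day 4 Cd101 was the single gene lower on that scale (-0.50, adjusted p = 0.0173). With every region called, the day 8 differences would have been -0.14 for Pdcd1, -0.05 for Cd5, -0.26 for Cd101 and -0.57 for Lair1, so these 4 could not have been called higher. The counts of 0 higher and 3 lower among 9 on day 8, and 0 and 1 on day 21 against day 4, stand beside 9.18% and 21.5%, and 8.5% and 21.1%, of all genes. The median was -0.40 for day 8 and -0.19 for day 21 against day 4. Ctla4 had 11, 11 and 11 regions on day 8 against 5, 5 and 4 on day 4, a scaled difference of -0.14 that missed the threshold (adjusted p = 0.420). Of 7 genes that carry signals of these receptors, the kinase gene Fyn and the phosphatase gene Ptpn11 were higher on day 8 than on day 4 (0.53 and 0.52) and Lck, the kinase gene of the T cell receptor pathway, was lower (-0.81, with 6, 5 and 5 regions on day 8 against 4, 3 and 4 on day 4, and -0.26 as the value with all regions called). For day 21 against day 4, Fyn was higher (0.66) and Lck and Inpp5d lower (-0.58 and -0.56). Inpp5d had 6, 5 and 5 regions on day 21 against 3, 3 and 3 on day 4, and Lck 7, 5 and 7 against 4, 3 and 4. With every region called the values would have been -0.25 for Lck and -0.19 for Inpp5d, so neither could have been called higher. The 2 higher and 1 lower among 7 on day 8, and 1 and 2 on day 21 against day 4, stand beside the shares of all genes given above. No gene of the 3 lists passed for day 21 against day 8. Comparisons against day 4 share the same 3 lists of that day.

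The genes most like each member were those with the smallest root mean square difference in the share of their regions called over the 9 lists, among genes with at least 3 regions. For Havcr2, 14 genes tied at 0, and the first by number of regions and alphabet were H2-Aa, Igsf5 and Sst, the somatostatin gene. Lag3 was most like Plin1 (0.0429), with 1, 0 and 0 of 4 regions on day 4, 3, 3 and 4 on day 8 and 3, 3 and 4 on day 21, and then like Gm6551 and Kalrn. Tigit was most like Acoxl (0.0337), Exoc2 and Ttc27, and Vsir like Rassf3 (0.0445), Slc7a1 and Acbd3. Btla was most like Ttc13 (0.0621), Anp32e and Herc2. For Cd160, 20 genes tied at 0, the first being Atp6v0a4, Btbd8 and Cap2. None of the 6 members was among the 3 nearest of another.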

How the data were processed

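ATAC-seq peak lists of 9 deposited samples (3 each for days 4, 8 and 21) were analysed, and whether the 3 of a day are separate libraries is not known. The submitters' processing notes name mm10, deepTools 2.0, MACS2, Picard and BWA 0.7.15, while their settings, their roles and any shift for the transposase cut were not given in the sources used here. Each deposited list holds 1 sample's peaks in MACS2 format with a score, a fold enrichment (ratio over local background), a −log10 p, a −log10 q (largest q 0.0500) and a summit offset (other), all made by the authors. Read depth is not in the lists and is unknown, so no read counts were tested. Summit heights in tags were recovered here as the whole number that gives both the deposited fold and −log10 p under a Poisson model (at least 99.995% of peaks per list came out whole, within 0.001 of the −log10 p; this step and the fit were tested on simulated data).

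Peaks on chromosomes 1 to 19 and X (353295) that overlapped by at least 1 base were joined into regions, and given to 21631 protein-coding genes of a RefSeq table (GRCm38.p6). Per gene with at least 3 regions, log2 of regions called plus 0.5, divided by the list's relative total, was fitted by limma 3.58.1 (trend, robust) in R 4.3.3 over all 9 lists, with the spread floored at that of 1 region called with probability 0.5, and p-values were Benjamini-Hochberg adjusted over all 8223 genes (threshold 0.05). Other steps ran in Python 3.11.15 (scipy 1.17.1, numpy 2.4.6, pandas 2.3.3), with matplotlib 3.10.9 for plots. Alternatives were another pseudocount, no floor, no division by totals, the strongest peaks, q of 0.01 or less, 50% coverage, at least 6 or 1 regions, 50 kb, overlapped genes only, a replicate block, 2 days only and each list left out. Members, lists and tests were chosen with earlier results of these data known. Named besides the members were genes of 3 pathway lists past the threshold (at most 8 per comparison, by p), Pdcd1 and Ctla4, the 3 most alike genes per member and neighbours; regions named singly were constant, gained, lost or the strongest of a gene, and others are named to account for every region.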

Additional observations from a re-analysis of the deposited data

How the results depend on the processing

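The numbers of members called depend on scale and on how a peak is counted. Higher on day 8 than on day 4 were 3 members, and 0 with 1 region added, 6 without division by list totals, 0 on the strongest peaks, 1 with 50% of a region covered, and 1 to 3 when a list was left out. Lower were 2, and 0 without division, 0 on the strongest peaks, 1 with 50% covered (Tigit, with neither Btla nor Vsir called), 1 in a fit of the 2 days only, and 1 to 2 when a list was left out. On day 21 against day 4, 2 were higher, and 0 with 1 region added, 6 without division, 0 on the strongest peaks, 1 with 50% covered, 1 among genes with at least 6 regions, and 1 to 2 when a list was left out. Lower were 2, and 0 without division, 0 on the strongest peaks, 1 with 50% covered (again Tigit alone), and 1 to 3 when a list was left out. The 17 regions gained on day 8 became 1 on the strongest peaks, the 20 of day 21 against day 4 became 0, and the 1 gained and 1 lost for day 21 against day 8 became 0 and 0; the loss became 3 without day 8 list 3. Havcr2, with 4 regions, was not fitted among genes with at least 6. The cause of the other changes was not tested, apart from fewer regions being counted under the stricter rules.

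Directions turned as follows. On day 8 against day 4, without division by list totals, Cd160 turned to 0.73, Btla to 0.81 and Vsir to 0.92, as the median of all genes moved to 1.17 in place of -0.14. On day 21 against day 4 they turned to 0.73, 0.36 and 0.84, with a median of 1.13 in place of -0.16. With 50% of a region covered Tigit turned to -0.56 on day 8 and -0.62 on day 21 against day 4, and Btla to 0.039 on day 8. Tigit turned to -0.34 on day 8 with overlapped genes only, and Lag3 to -0.62 on the strongest peaks. Cd160, not called in either fit, moved to 0.48 on day 8 and 0.07 on day 21 against day 4 on the strongest peaks.

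Lists were not paired by number in the main fit. Deviations of same-numbered lists correlated at -0.0289 to 0.0640, and those of lists with other numbers at -0.0446 to 0.0233. Between day 8 and day 21 each list correlated best with its own number (0.0315, 0.0189 and 0.0640), while against day 4 not every list did. Whether same-numbered lists are linked is not known. With a replicate block, 2 members were higher and 1 lower on day 8 against day 4 (Tigit adjusted p = 0.0783, Vsir 0.0665), 2 and 2 on day 21 against day 4, and 0 and 0 on day 21 against day 8; 517 and 1500 of all genes were called on day 8 against day 4, and 425 and 1321 on day 21 against day 4.

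Over all genes, 755 were higher and 1769 lower on day 8 against day 4, and 299 and 2719 with 1 region added, 1345 and 2294 without the floor, 6905 and 0 without division, 0 and 4 on the strongest peaks, 475 and 2373 with 50% covered, 623 and 654 among genes with at least 6 regions, 749 and 5606 with at least 1, and 475 and 1464 in a fit of 2 days only. On day 21 against day 4 the 699 and 1734 became 304 and 2696, 1341 and 2261, 6760 and 0, 0 and 0, 436 and 2349, 644 and 580, 712 and 5626, and 463 and 1444 under the same settings in the same order. On day 21 against day 8, 3 higher and 2 lower were called in the fit of 2 days only. Read depth is unknown, so how many day 4 calls more reads would add cannot be given.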
